A study of Mus musculus with 4 samples.

Results

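Smpd1, Asah1, Sphk1, Sphk2, Sgpl1, Sgpp1, S1pr1, S1pr2 and S1pr3 are 9 mouse genes of ceramide and sphingosine 1-phosphate metabolism and signalling. They were taken by symbol from the gene list of the deposited count matrices, and all 9 were found among its 32285 genes. Their UMIs (unique molecular identifiers, each counting 1 captured transcript once) were described across ovarian cell types and across 4 treatment groups. The control group received vehicle (PBS/Saline). The other 3 groups received doxorubicin (3 mg/kg), recombinant human anti-Müllerian hormone (AMH, 0.75 mg/kg), or both agents at these doses, named doxorubicin+AMH. The mice were prepubertal (postnatal day 25), doxorubicin was dosed weekly 2 times, with ovaries removed 4 hours after the final dose. No strain or transgene is given in the sources used here. Each group was 1 library of dissociated cells, pooled from a single ovary of each of 5 animals, which leaves the animal-to-animal spread unmeasured. Every difference between groups given here is a difference between 2 libraries, with no replicate check and no p-value, and the intervals (95%, exact) cover counting error only.

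Ceramide is the core lipid of the sphingolipids. Acid sphingomyelinase releases it from sphingomyelin in the lysosome, acid ceramidase cleaves it to sphingosine, and sphingosine kinases phosphorylate sphingosine to sphingosine 1-phosphate. The phosphate is dephosphorylated again by phosphatases or cleaved for good by a lyase, or it leaves the cell and acts on G protein-coupled receptors of endothelium, vessel wall and leukocytes. In the ovary, ceramide is known as a mediator of oocyte death after chemotherapy such as doxorubicin, and sphingosine 1-phosphate as an agent that opposes it. No cluster of the deposited cells met the marker rule for oocytes.

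After filtering, 7911 control, 5998 doxorubicin, 6494 doxorubicin+AMH and 7827 AMH cells were kept, with median depths from 10607 UMIs per cell in AMH to 15041 in doxorubicin. Of 32 clusters, 28 were named from marker genes, written with "-like", in 12 classes. A B lymphocyte-like cluster led by Cd74, H2-Eb1 and H2-Aa, with none of its class's markers among its top 10 genes, was not found at the lower resolution of 0.5, and its values are not given. The comparisons used the 6 classes that every library filled with 50 cells or more: granulosa-like, theca-like, stroma-like, mural smooth muscle-like, blood endothelial-like and macrophage-like. Unnamed clusters held 850 cells, 409 of them in doxorubicin, including a pair of clusters with granulosa markers that were 98.9% and 95.2% doxorubicin cells. Pairs of libraries shared 11 to 24 of their deposited barcodes. CPM is the gene's UMIs per 1000000 UMIs summed over all cells of a class in a library. Sets of 4 values run through the libraries in the order control, doxorubicin, doxorubicin+AMH, AMH. An unnamed cluster of 543 cells was led by Ooep and Dppa3, known from oocytes, and by Enpep, but met only the stroma and mural marker counts. At the resolution of 0.5, a cluster of 539 cells had the same leading genes. Its top 10 also held the stroma marker Col1a1 and Hmmr, Top2a, Mki67 and Birc5, and its depth was 246.7% of the library median. In the cluster of 543 cells Asah1 was at 39.6 to 45.3 CPM and S1pr2 at 16.2 to 23.3 CPM. A ratio between libraries was counted as called when it passed 1.5-fold, on a log2 scale with 5 CPM added, in a class where the gene's mean level across libraries reached 20 CPM. Asah1, Sgpl1 and Sgpp1 passed that minimum in all 6 classes, S1pr1 and S1pr2 in 2 classes each, and Smpd1, Sphk1, Sphk2 and S1pr3 in none, which leaves 22 of 54 gene-by-class pairs. A minimum on the mean keeps a gene where it is high, so the counts over these 22 pairs do not describe all 9 genes.

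Asah1 and Sgpl1 were highest in macrophage-like cells and S1pr1 in blood endothelial-like cells, and each of those classes lay above every other compared class in all 4 libraries. That is 3 of the 5 genes that reached 20 CPM in some class. The same held for 50.04% of the 9495 genes tested in this way, so the share among these genes is near that of all genes. S1pr2 and Sgpp1 had no class apart from the rest. The levels of the classes are a description, since all classes were cut from the same 4 libraries.

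**Figure D1:**
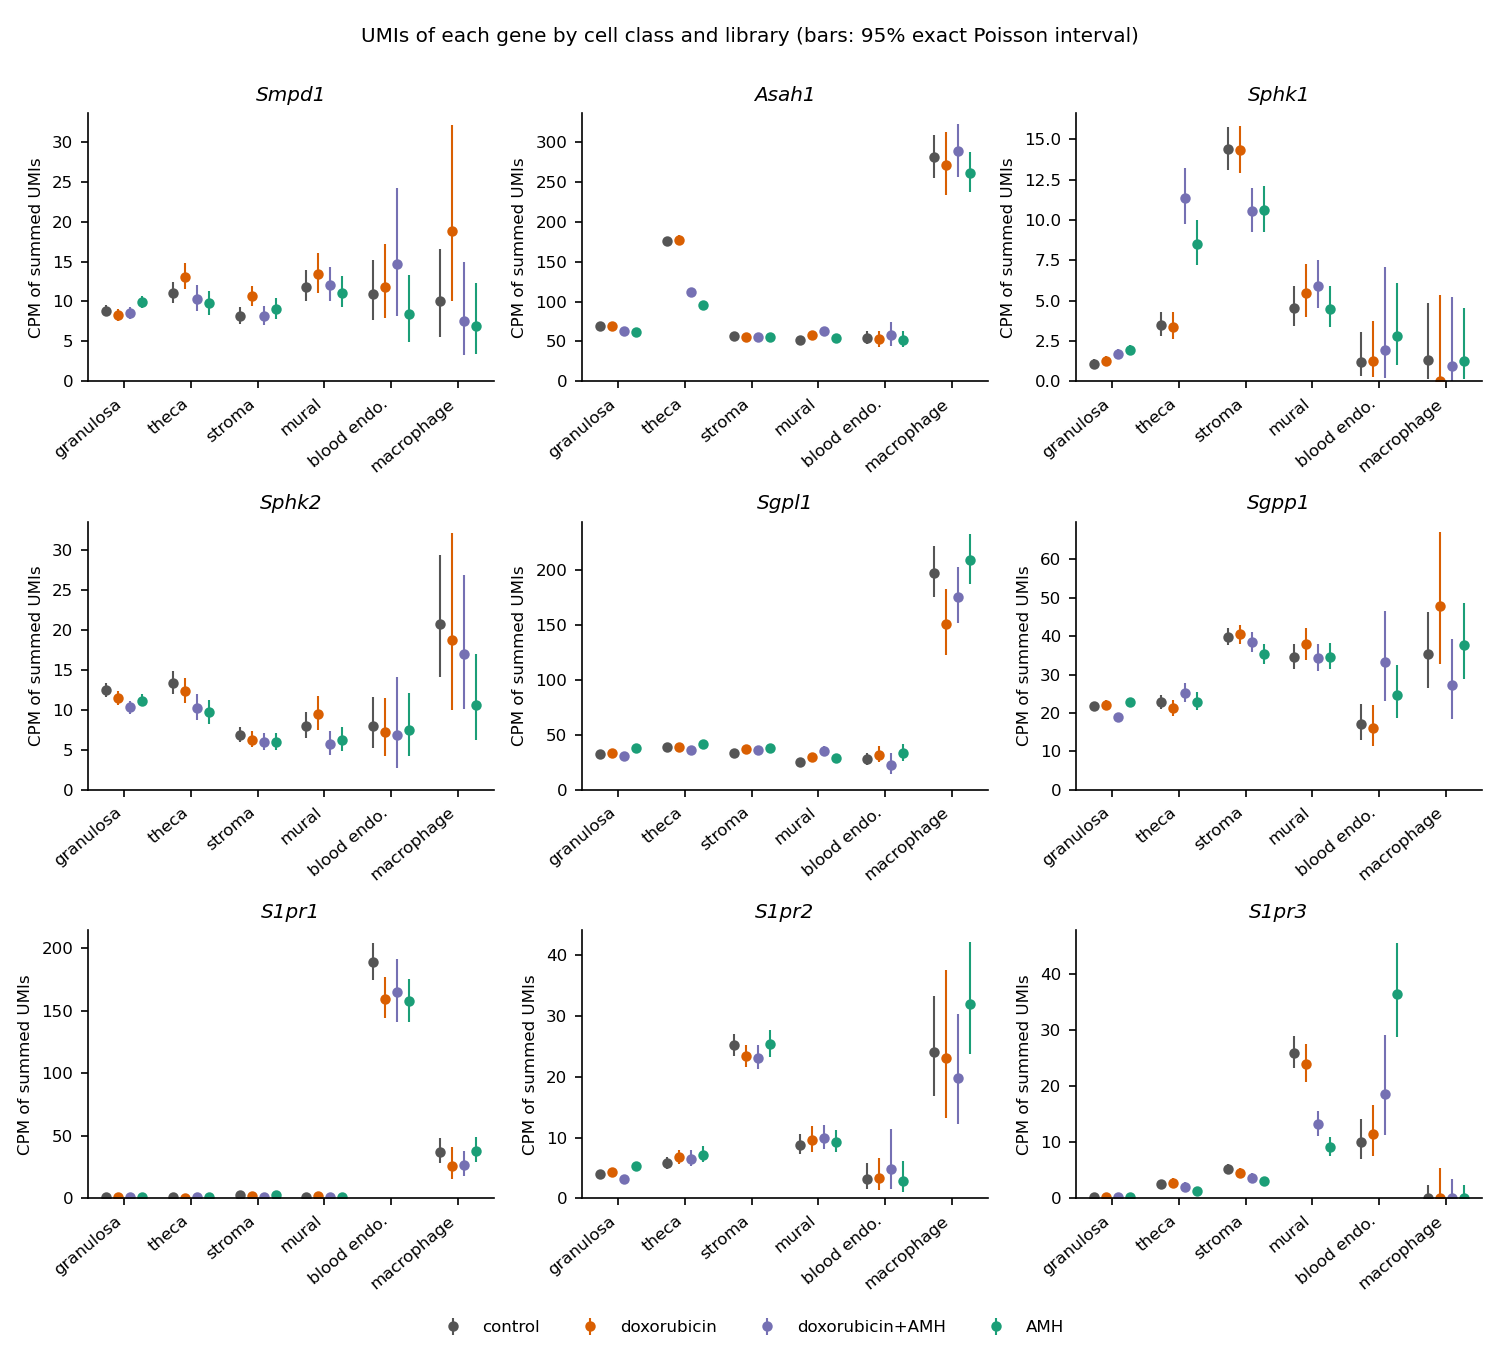
CPM of summed UMIs (vertical axes, linear and starting at 0, a different range in each panel) of the 9 genes in 6 cell classes (horizontal axes), with 1 point per library and its 95% exact Poisson interval. Asah1 and Sgpl1 stand above all other classes in macrophage-like cells and S1pr1 in blood endothelial-like cells, while Smpd1 has overlapping ranges from class to class.

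Smpd1 (chr7:105554360-105558389, plus strand, mm10) encodes acid sphingomyelinase, the lysosomal enzyme that makes ceramide from sphingomyelin. It was low and even across the compared classes. Mural smooth muscle-like cells had 11.9, 13.4, 12.01 and 11.1 CPM, and granulosa-like cells had 8.85, 8.34, 8.56 and 9.94 CPM. No class was separated from its neighbour in the order of mean levels, which ran from mural smooth muscle-like through blood endothelial-like, theca-like, macrophage-like and stroma-like to granulosa-like cells. The doxorubicin library had the highest value in 4 of these classes, namely theca-like (13.1 against 11.1 in control), stroma-like (10.7 against 8.21), mural smooth muscle-like and macrophage-like cells (18.8 against 10.03). The macrophage-like value rests on 13 UMIs, with an interval of 10.01 to 32.1 CPM that holds the control value. Granulosa-like cells, the compared class with the lowest mean CPM, held 36.2% to 52.1% of all Smpd1 UMIs in a library. Surface epithelial-like cells, not among the compared classes, lay above those classes in control, doxorubicin and AMH. They had 21.8, 29.1, 9.20 and 22.45 CPM from 71, 87, 5 and 36 UMIs.

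Asah1 (chr8:41340197-41374773, minus strand) encodes acid ceramidase, which splits ceramide in the lysosome into sphingosine and a fatty acid. Macrophage-like cells had 281, 270.4, 288 and 261 CPM, with no overlap with any other compared class. Theca-like cells came next, with 176, 177, 112 and 95.7 CPM. Granulosa-like cells had 62.04 to 69.2 CPM, and the other 3 classes 51.6 to 62.6 CPM. Theca-like cells exceeded the latter 4 classes in every library. Of those 4, only granulosa-like cells exceeded others in every library, namely the other 3 classes. Their range still overlapped that of mural smooth muscle-like cells. Granulosa-like cells were not uniform: the cluster led by Inhba, Hsd17b1 and Inhbb, genes of inhibin and activin subunits and of oestrogen synthesis, had 119, 112, 100.5 and 86.8 CPM, against 51.8 to 55.4 CPM in the cluster led by Inhba, Mctp1 and Inhbb.

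Theca-like cells, the steroid-making cells of the follicle wall, gave the clearest difference between libraries in Asah1. The AMH library was lower than control, with a log2 ratio of -0.84 (CPM ratio 0.544, interval 0.514 to 0.576). Doxorubicin+AMH was lower than doxorubicin, with a log2 ratio of -0.65 (ratio 0.629, 0.593 to 0.667). Both AMH libraries therefore lay below both libraries without AMH. The ratios for doxorubicin were 0.01 without AMH and 0.21 with AMH on the log2 scale. In the same class 8.33% of 6253 genes were called lower in AMH than in control, and 8.20% lower in doxorubicin+AMH than in doxorubicin.

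The theca-like class was made of different clusters in these libraries. The cluster led by Cyp17a1, Cyp11a1 and Lhcgr held 808, 556, 173 and 171 cells, and the cluster led by Lhcgr, Prss35 and Dpp6 held 29, 19, 525 and 697 cells. Within the Cyp17a1 cluster, Asah1 was at 176, 178, 140.0 and 116 CPM. The log2 ratios there were -0.58 for AMH / control (CPM ratio 0.66, interval 0.604 to 0.72) and -0.34 for doxorubicin+AMH / doxorubicin (0.785, 0.722 to 0.852). With 5 CPM added, neither passed 1.5-fold within the cluster. AMH / control lay just inside that limit, while its plain CPM ratio of 0.66 lay just past it. Within the Lhcgr, Prss35 and Dpp6 cluster the values were 124, 106, 97.9 and 87.3 CPM, the first and second from 37 and 26 UMIs. In each cluster, AMH was the lowest of the 4 libraries.

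Markers of the theca-like class itself moved along with Asah1. The summed level of its 7 markers, all of them detected, was 14970, 14540, 5974 and 4923 CPM. Cyp17a1, the enzyme that makes androgens, was at 1897, 1858, 341 and 139 CPM, whereas Star, which carries cholesterol into mitochondria, was at 428, 320.5, 388 and 329 CPM. Stroma markers in this class (7 of 7 detected) summed to 384, 401, 896 and 855 CPM, and tissue handling genes (18 of 18) to 10620, 11550, 14530 and 14930 CPM. Macrophage markers (9 of 9) summed to only 18.0 to 28.3 CPM, against at least 20340 CPM in macrophage-like cells. The part of these shifts in the Asah1 difference was not tested beyond the values within clusters. After each cell was thinned to 2000 UMIs, 27.3%, 31.3%, 18.5% and 17.04% of theca-like cells had an Asah1 UMI (unthinned 91.5%, 89.2%, 72.1% and 67.7%, at median depths of 20580, 24523, 14345 and 12701.5 UMIs, with 5 to 29 cells left out). Thinned erythroid-like cells, which should hold little of this RNA, were at 0 to 3.23% (unthinned 2.44% to 5.08%, at median depths of 3928 to 6553 UMIs).

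**Figure D2:**
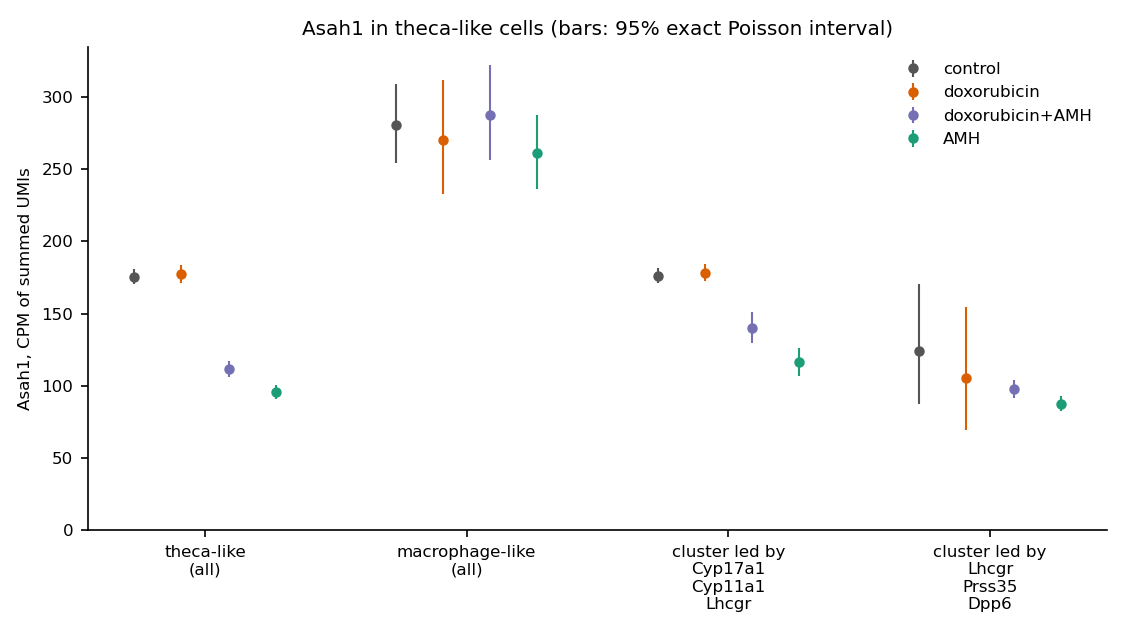
Asah1 CPM of summed UMIs (vertical axis, linear from 0) by library in all theca-like cells, all macrophage-like cells and both theca-like clusters, with 95% exact Poisson intervals. The doxorubicin+AMH and AMH points of the theca-like class lie at 112 and 95.7 CPM, below control and doxorubicin, and the gap is narrower within each cluster.

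Sphk1 (chr11:116530925-116536674, plus strand), one of the sphingosine kinases and known as the inducible, cytosolic one, stayed under 20 CPM in every compared class. Stroma-like cells had 14.4, 14.3, 10.5 and 10.6 CPM and held 31.9% to 60.5% of the gene's UMIs in a library. Within stroma, the cluster led by Col1a1, Dpt and Clec3b, genes of connective tissue fibroblasts, had 32.9, 31.9, 19.8 and 27.01 CPM, against 5.53 to 17.1 CPM in the other 4 stroma-like clusters. Oviduct epithelial-like cells had 20.2 CPM in control, 39.9 in doxorubicin+AMH and 16.4 in AMH, while doxorubicin held a single such cell. Macrophage-like cells had 0 to 1.34 CPM, from at most 2 UMIs per library.

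In theca-like cells Sphk1 was at 3.48, 3.38, 11.4 and 8.50 CPM. Both AMH libraries were higher, a pattern opposite in direction to that of Asah1 in the same cells, at levels below the 20 CPM minimum. The Cyp17a1 cluster had 3.40, 3.16, 6.27 and 5.21 CPM. The Lhcgr, Prss35 and Dpp6 cluster, which the AMH libraries filled, had 10.04, 20.3, 13.8 and 9.82 CPM, the first and second from 3 and 5 UMIs. A similar split appeared in the granulosa-like cluster led by Cntn4, Slc18a2 and Cdh12, with 329, 285, 151 and 222 cells: 16, 20, 47 and 50 UMIs gave 1.32, 1.86, 10.7 and 8.29 CPM. There the plain CPM ratio was 6.27 for AMH / control (interval 3.51 to 11.8) and 5.76 for doxorubicin+AMH / doxorubicin (3.35 to 10.2). The other 6 granulosa-like clusters lay between 0 and 5.95 CPM. This cluster was picked out after its values were seen.

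**Figure D3:**
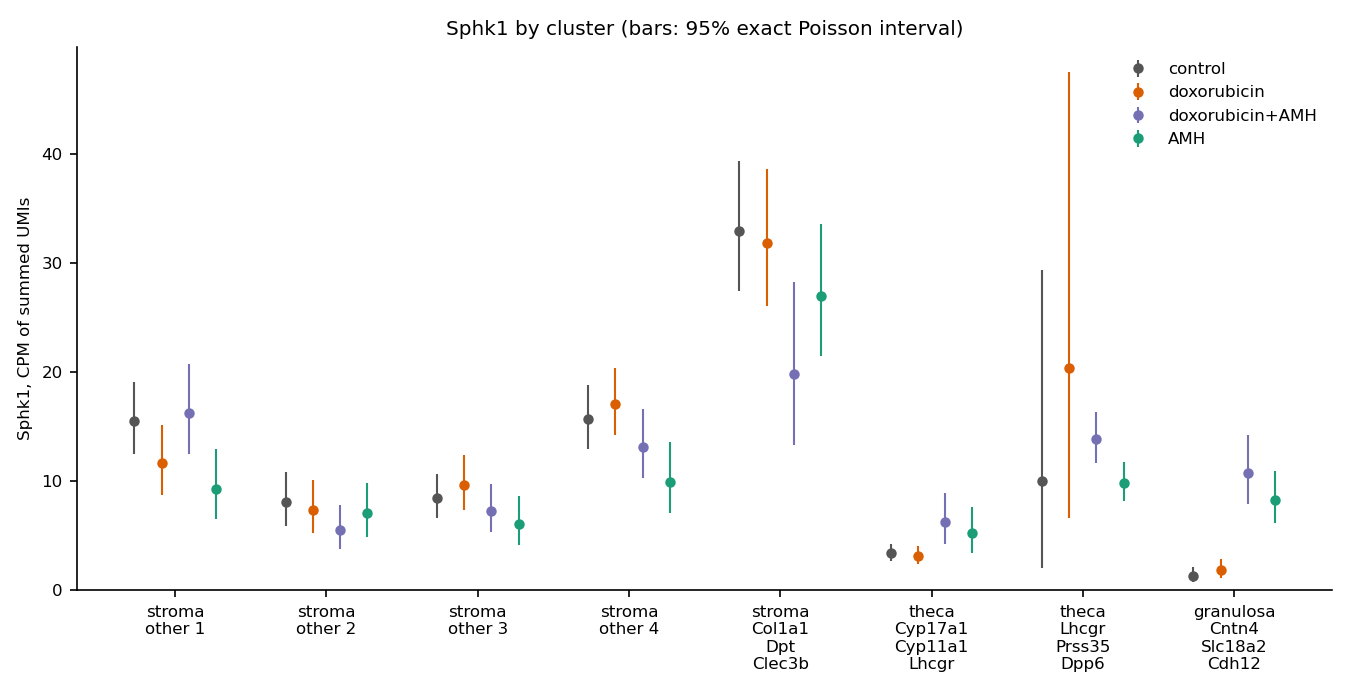
Sphk1 CPM of summed UMIs (vertical axis, linear from 0) by library in the 5 stroma-like clusters, both theca-like clusters and 1 granulosa-like cluster, named by 3 leading genes except for 4 stroma-like clusters that are numbered, with 95% exact Poisson intervals. The Col1a1, Dpt and Clec3b cluster is the highest of the stroma-like clusters at 19.8 to 32.9 CPM, and the Cntn4 cluster of granulosa-like cells is at 1.32 and 1.86 CPM without AMH and 10.7 and 8.29 CPM with it.

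Sphk2 (chr7:45709467-45718002, minus strand), the other sphingosine kinase and known for a nuclear form, was low and more evenly spread than Sphk1. Macrophage-like cells had 20.7, 18.8, 17.0 and 10.7 CPM from 13 to 31 UMIs. Theca-like cells had 13.4, 12.4, 10.2 and 9.70 CPM, and granulosa-like cells 12.5, 11.5, 10.3 and 11.2 CPM. The remaining 3 compared classes had 5.73 to 9.48 CPM. Surface epithelial-like cells, not among the compared classes, had 19.4, 13.4, 16.6 and 8.11 CPM from 63, 40, 9 and 13 UMIs. Control was highest and AMH lowest in macrophage-like and theca-like cells. In the annotation, Sphk2 overlaps exons of Rpl18 and Dbp on the opposite strand, and Rpl18, a ribosomal protein gene, was at 1390 to 3138 CPM. Whether the counting used strand is not given in the sources used here, and without strand the reads of such genes cannot be told apart. Sphk1 likewise overlaps exons of the antisense gene Gm29292, which was at 0 to 3.62 CPM.

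Sgpl1 (chr10:61098642-61147703, minus strand) encodes the lyase that cleaves sphingosine 1-phosphate irreversibly. Macrophage-like cells had 197, 150.4, 175.5 and 209.0 CPM, a mean 4.68 times that of theca-like cells, the next class. The other 5 classes all fell between 22.6 and 41.7 CPM and were not separated from their neighbours. In macrophage-like cells both libraries with doxorubicin lay below both without it, with log2 ratios of -0.38 for doxorubicin / control (CPM ratio 0.763, interval 0.604 to 0.957) and -0.25 for doxorubicin+AMH / AMH (0.84, 0.698 to 1.01), neither past 1.5-fold. With each cell weighted equally, doxorubicin / control was -0.86, past 1.5-fold, while doxorubicin+AMH / AMH was not called. In that setting doxorubicin+AMH / doxorubicin was called too, at 0.63. A macrophage-like cluster of shallow cells, whose depth was 12.0% of the library median, made up 31.5% to 40.2% of the class's cells and 6.11% to 13.0% of its UMIs. Without it Sgpl1 was at 203, 163, 184 and 229 CPM and Asah1 at 289, 275, 302 and 284 CPM.

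Sgpp1 (chr12:75714249-75735729, minus strand) encodes a phosphatase of the endoplasmic reticulum that returns sphingosine 1-phosphate to sphingosine. Stroma-like cells (35.3 to 40.4 CPM), macrophage-like cells (27.4 to 47.7) and mural smooth muscle-like cells (34.4 to 37.8) were not separated. Mural smooth muscle-like cells exceeded theca-like cells (21.2 to 25.2) in every library, while theca-like, blood endothelial-like (16.1 to 33.3) and granulosa-like cells (18.97 to 22.8) overlapped. Oviduct epithelial-like cells, not among the compared classes, had 40.1 CPM in control, 24.7 in doxorubicin+AMH and 42.85 in AMH, from 139, 13 and 261 UMIs. Within stroma, the Col1a1, Dpt and Clec3b cluster that was highest in Sphk1 was the lowest in Sgpp1, at 20.9, 21.1, 31.0 and 14.3 CPM against 31.2 to 49.8 CPM in the other 4.

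Both other calls among these genes were of Sgpp1, and they pointed in opposite directions. In blood endothelial-like cells it was at 17.2, 16.1, 33.3 and 24.8 CPM, from 58, 38, 34 and 53 UMIs. Doxorubicin+AMH / doxorubicin was 0.86 on the log2 scale (CPM ratio 2.07, interval 1.27 to 3.38). Control and doxorubicin lay under the 20 CPM minimum, which the class passed only through the libraries with AMH, so the call depends on the values it compares. Mural markers in this class (8 or 9 of 9 detected) were also higher in doxorubicin+AMH than in doxorubicin, with sums of 682, 429, 1085 and 773 CPM, and Sgpp1 was at 62.8, 69.97, 65.1 and 38.2 CPM in the mural cluster led by Rgs5. Their part in the endothelial difference was not tested. In macrophage-like cells it was at 35.4, 47.7, 27.4 and 37.7 CPM, from 53, 33, 29 and 60 UMIs, and the same contrast was -0.70 (0.574, 0.336 to 0.974). In the former the doxorubicin+AMH library was the highest of 4 and in the latter the lowest. Without the cell with most UMIs the endothelial values were 15.8, 13.8, 30.5 and 23.0 CPM and the macrophage values 33.0, 45.3, 23.9 and 35.6 CPM. Neither call was kept when doublets were left in and the cells clustered again.

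S1pr1 (chr3:115710433-115715072, minus strand) encodes the receptor that keeps endothelial junctions closed and lets lymphocytes leave lymphoid tissue. Blood endothelial-like cells had 189, 159.7, 165 and 158 CPM, and each library's value was above all values of the other compared classes. Lymphatic endothelial-like cells, with 39 to 77 cells per library and not among the compared classes, had 230.0, 209, 194 and 191 CPM. In both endothelial classes control was the highest library and AMH the lowest. T or NK lymphocyte-like cells had 84.3, 48.9, 37.7 and 26.5 CPM from 41, 8, 14 and 8 UMIs. Macrophage-like cells had 37.4, 26.0, 26.4 and 38.3 CPM, and the remaining 4 compared classes at most 2.81 CPM.

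Blood and lymphatic endothelial-like cells together carried most S1pr1 UMIs: blood endothelial-like cells held 42.7%, 55.04%, 32.7% and 40.9% in the 4 libraries and lymphatic endothelial-like cells 37.0%, 18.7%, 33.3% and 26.9%. Over all kept cells S1pr1 was at 9.65, 5.36, 4.25 and 5.74 CPM. Blood endothelial-like cells made up 2.11%, 1.92%, 0.89% and 1.06% of kept cells, with 637, 377, 168 and 337 S1pr1 UMIs. Lymphatic endothelial-like cells made up 0.97%, 0.65%, 0.66% and 0.66%, with 552, 128, 171 and 222 S1pr1 UMIs. The libraries differed more over all cells than within either class, and the part of each class in this was not tested. Within blood endothelial-like cells the log2 ratios were -0.24 for doxorubicin / control (CPM ratio 0.845, interval 0.742 to 0.961) and -0.25 for AMH / control (0.834, 0.729 to 0.953). They were 0.06 for doxorubicin+AMH / AMH and 0.04 for doxorubicin+AMH / doxorubicin. After thinning, 34.4%, 22.3%, 30.8% and 23.1% of blood endothelial-like cells had a UMI (unthinned 79.04%, 70.4%, 67.2% and 75.9%, at median depths of 10214 to 15033 UMIs), against none of 31 to 59 thinned erythroid-like cells per library, which allows a share of up to 6.06% to 11.2% (Clopper-Pearson; unthinned 0 to 3.39%).

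S1pr2 (chr9:20962361-20976781, minus strand) encodes a receptor known to restrain cell migration. Macrophage-like cells had 24.1, 23.1, 19.8 and 32.01 CPM from 16 to 51 UMIs, and stroma-like cells 25.2, 23.4, 23.2 and 25.4 CPM from 532 to 780 UMIs. These classes were not separated. Stroma-like cells exceeded mural smooth muscle-like cells (8.80 to 9.98 CPM), which exceeded theca-like cells (5.75 to 7.18), which exceeded granulosa-like cells (3.13 to 5.29). All 5 stroma-like clusters carried it, at 20.4 to 36.7 CPM, and 40.2% to 51.9% of its UMIs in a library came from stroma-like cells. In stroma the 4 log2 ratios lay between -0.11 and 0.01. In macrophage-like cells AMH was the highest library, and doxorubicin+AMH / AMH was -0.58 (CPM ratio 0.619, interval 0.354 to 1.05), just inside 1.5-fold and past it with 1 CPM added in place of 5 (-0.66).

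S1pr3 (chr13:51408639-51422797, plus strand) encodes a receptor known from smooth muscle and vessel tone. The class values hide where it was found. Mural smooth muscle-like cells as a whole had 26.0, 23.9, 13.2 and 9.11 CPM, but the cluster led by Rgs5, Ebf1 and Ndufa4l2, genes known from pericytes and small-vessel smooth muscle, had 229.8, 202, 195 and 120.1 CPM. That cluster held 112, 79, 65 and 68 cells, 7.46% to 13.3% of the class's cells, and 75.2%, 87.1%, 77.6% and 60.6% of the class's S1pr3 UMIs. The cluster led by Des, Cnn1 and Actg2 had 23.7, 38.1, 39.9 and 7.22 CPM, the second of these from 19 cells. The cluster led by Acta2, Myh11 and Actg2, which held most cells of the class, had 0.829 to 2.80 CPM.

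Within the Rgs5 cluster the log2 ratio was -0.91 for AMH / control (CPM ratio 0.523, interval 0.392 to 0.688) and 0.68 for doxorubicin+AMH / AMH (1.62, 1.19 to 2.24), while doxorubicin / control was -0.18 and doxorubicin+AMH / doxorubicin -0.05. The AMH library was thus the one that stood lower, and the same library was lowest in the Des cluster. In the Acta2, Myh11 and Actg2 cluster it was the highest, with 1.81, 2.06, 0.829 and 2.80 CPM from 16, 15, 8 and 25 UMIs. The class value of doxorubicin+AMH lay below that of doxorubicin although the values within the Rgs5 cluster were close (195 and 202 CPM): the cluster held 5.25% of the class's UMIs in the former and 10.3% in the latter. Rgs5 over the whole class was at 212.5, 269, 93.1 and 81.8 CPM. These clusters were picked out after their values were seen.

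**Figure D4:**
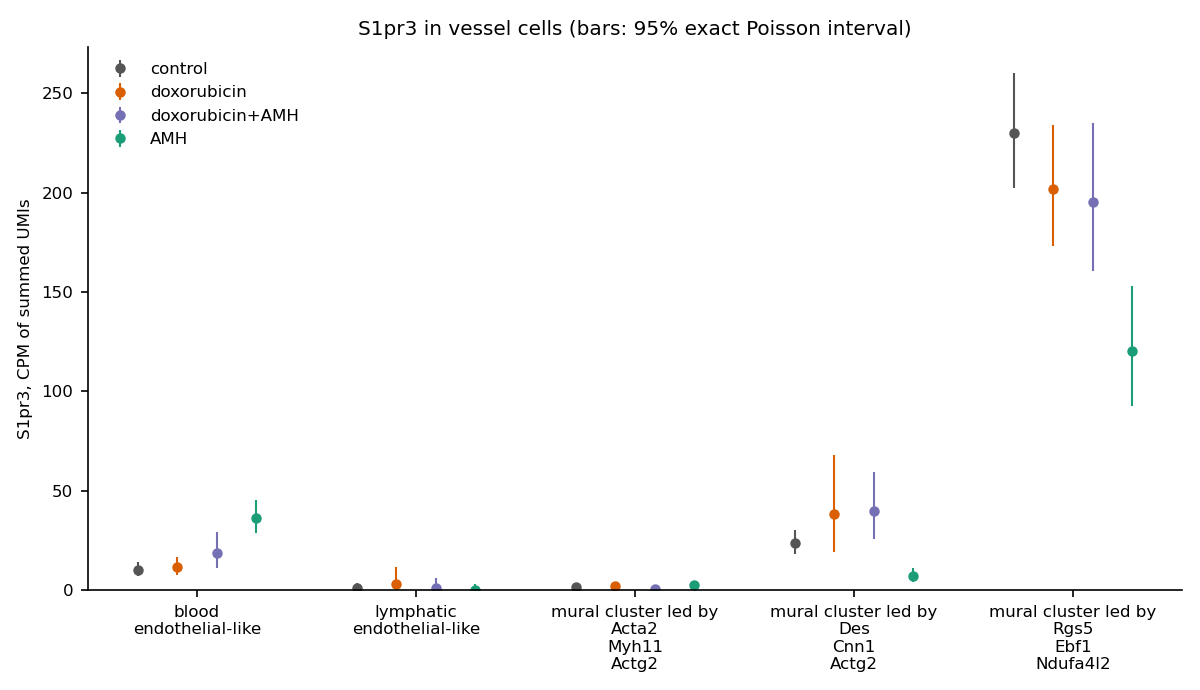
S1pr3 CPM of summed UMIs (vertical axis, linear from 0) by library in blood and lymphatic endothelial-like cells and in the 3 mural smooth muscle-like clusters, with 95% exact Poisson intervals. The Rgs5 cluster lies between 120.1 and 229.8 CPM, and all other points lie at or below 39.9 CPM.

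Blood endothelial-like cells had 10.1, 11.4, 18.6 and 36.5 CPM of S1pr3, an order opposite to that of the mural class. The UMIs sat in few cells: 9 of 167, 5 of 115, 6 of 58 and 17 of 83 cells had any, with up to 14 UMIs in a cell. After thinning, 1 cell in each library had a UMI, a share of 0.625% to 1.92%, which lies under the 6.06% to 11.2% that 0 of 31 to 59 erythroid-like cells allows. Mural markers were detected in this class too (8 or 9 of 9), at the summed levels given beside Sgpp1, with Rgs5 at 282, 155.5, 436 and 377 CPM. In AMH the macrophage markers (7 to 9 of 9 detected in a library) summed to 273 CPM against 26.3 to 35.6 CPM elsewhere, erythroid markers (4 or 5 of 6) to 429 against 16.6 to 18.6 CPM, and stroma markers (7 of 7) to 453 against 145 to 172 CPM. The part of these in the endothelial S1pr3 values was not tested. Lymphatic endothelial-like cells had 0 to 3.26 CPM. In stroma, the cluster led by Enpep was highest, at 14.7, 8.67, 7.51 and 8.21 CPM. No S1pr3 UMI was found in macrophage-like cells in any library, which allows levels of up to 1.88 to 4.34 CPM, the worth of 3 UMIs (exact Poisson upper bounds 2.31 to 5.33 CPM). S1pr3 overlaps exons of the long noncoding gene Gm32834 on the opposite strand, which was at 0 to 2.61 CPM.

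S1pr2 and S1pr3 are receptors of the same ligand. Among the compared classes S1pr2 was highest in stroma-like and macrophage-like cells, while S1pr3 was highest in the Rgs5 cluster. The Rgs5 cluster held S1pr2 too, at 15.7, 6.88, 7.04 and 27.3 CPM from 17, 6, 4 and 15 UMIs. The promoters of S1pr2 and S1pr3 are shown because their highest levels lay in different cells. Of the 9 genes, 7 had entries in the RefSeq promoter table for GRCm38.p6. The 250 bases before the start are printed 5′ to 3′ on the gene's strand, S1pr2 at chr9:20976794-20977043 on the minus strand and S1pr3 at chr13:51408368-51408617 on the plus strand, with matches to 5 motifs in capitals.

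S1pr2: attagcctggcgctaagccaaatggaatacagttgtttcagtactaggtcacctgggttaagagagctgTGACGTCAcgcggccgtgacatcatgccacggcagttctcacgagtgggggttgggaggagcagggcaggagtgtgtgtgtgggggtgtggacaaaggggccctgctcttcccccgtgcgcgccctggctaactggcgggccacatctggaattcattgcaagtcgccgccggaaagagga

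S1pr3: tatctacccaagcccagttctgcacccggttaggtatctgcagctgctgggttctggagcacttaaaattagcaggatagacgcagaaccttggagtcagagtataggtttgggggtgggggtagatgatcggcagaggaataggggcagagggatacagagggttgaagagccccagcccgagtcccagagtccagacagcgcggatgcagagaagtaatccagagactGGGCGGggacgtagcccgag

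The motifs searched on both strands were the GC box GGGCGG, the CCAAT box CCAAT, the AP-1 site TGACTCA, the cyclic AMP response element TGACGTCA and the TATA box TATAAA; none contains another. The capitals in S1pr2 are a cyclic AMP response element that begins 181 bases before the start, a motif found in 1.55% of the 32851 promoter entries in this window. The capitals in S1pr3 are a GC box that begins 20 bases before the start, a motif found in 32.7% of entries. The S1pr2 window is 59.2% and the S1pr3 window 56.4% GC, against a median of 52.4%. These matches describe letters only.

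Across the 4 contrasts, few of these genes differed past 1.5-fold. Doxorubicin / control and doxorubicin+AMH / AMH gave 0 calls among the 22 pairs, where 2.55% and 3.55% of 39187 pairs over all genes were called. AMH / control gave 1 (Asah1 in theca-like cells), where 5.69% of all pairs were called. Doxorubicin+AMH / doxorubicin gave 3 (Asah1 in theca-like cells and Sgpp1 in 2 classes), where 7.14% were called. Each library stands in 2 of the 4 contrasts, so they are not independent. For doxorubicin, the median log2 ratio of the passing members stayed within -0.06 to 0.16 in each class without AMH, beside -0.03 to 0.02 for all genes, and within -0.40 to 0.17 with AMH, beside -0.02 to 0.04. For AMH, it stayed within -0.01 to 0.08 without doxorubicin, beside -0.08 to -0.01 for all genes, and within -0.12 to 0.10 with doxorubicin, beside -0.05 to -0.02. The -0.40 is the macrophage-like class, where Sgpl1, Sgpp1, S1pr1 and S1pr2 were all lower in doxorubicin+AMH than in AMH (-0.25, -0.40, -0.46 and -0.58), all within 1.5-fold, and Asah1 was at 0.14. S1pr1 in macrophage-like cells was lower with doxorubicin in both contrasts, at -0.45 and -0.46, from 18 to 61 UMIs per library, with intervals that hold 1 (0.385 to 1.2 and 0.425 to 1.10).

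**Figure D5:**
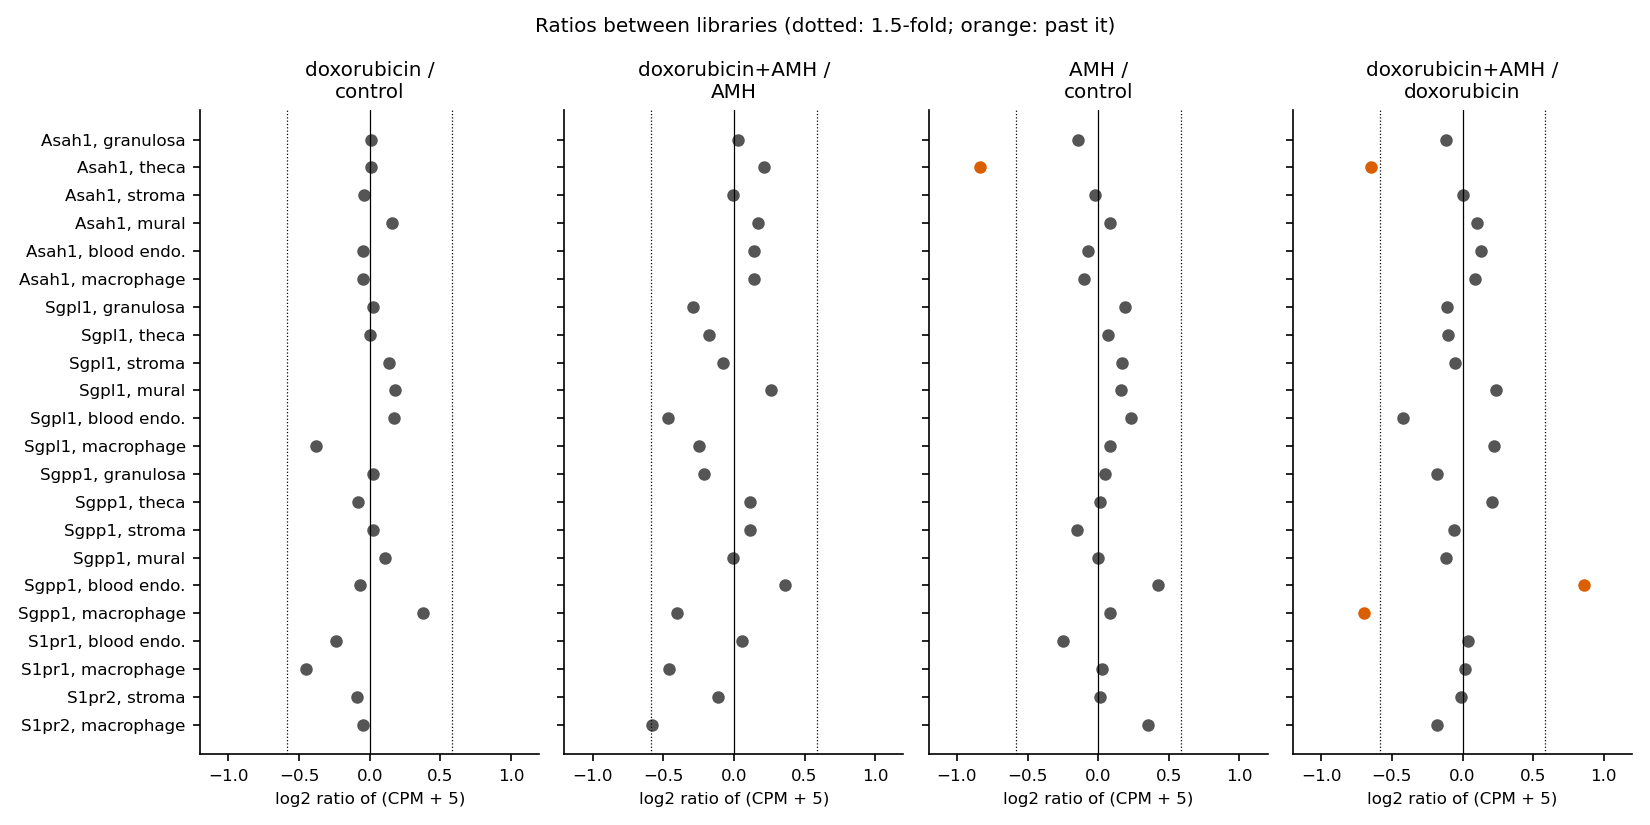
Log2 ratios of CPM (5 CPM added) between libraries (horizontal axes, 1 panel per contrast) for the 22 gene-by-class pairs with a mean of at least 20 CPM. Dotted lines mark 1.5-fold, orange points lie past it, and the 4 orange points are Asah1 in theca-like cells, once in each AMH contrast, and Sgpp1 in blood endothelial-like and macrophage-like cells.

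The rest of the pathway was read from a list of 58 genes, of which 57 were in the matrices and 38 reached a mean of 20 CPM in a compared class. Macrophage-like cells stood apart for 15 of the 38, where they did so for 13.8% of all 9495 genes. Among these were lysosomal genes of glycosphingolipid breakdown: Hexa (406 to 434.5 CPM), which encodes a hexosaminidase subunit, Psap (1869 to 3490), the precursor of the saposins that assist these enzymes, Gla, Galc and Glb1. B4galt5, B4galt6, Cers2, Degs1, Ormdl2, Cerk, Smpdl3a and the ceramidase Acer3 (139 to 205 CPM) were among the 15 too. Blood endothelial-like cells stood apart for 6 (11.1% of all genes): Spns2, the exporter of sphingosine 1-phosphate (52.5 to 68.7 CPM, against at most 4.01 in macrophage-like cells, the next class), the lipid phosphate phosphatases Plpp1 (158 to 234) and Plpp3 (588 to 624), the ceramidases Asah2 and Acer2, and the ceramide transfer gene Col4a3bp. Granulosa-like cells stood apart for 5 (12.7%): St3gal5, the ganglioside GM3 synthase (379.7 to 461 CPM), Sgms2, Smpdl3b, Sgpp2 and Aldh3a2. Mural smooth muscle-like cells stood apart for Smpd2, a neutral sphingomyelinase (4.28% of all genes), theca-like cells for the ceramide synthase Cers6 at 223 to 441 CPM (4.67%), and stroma-like cells for none (3.56%). S1pr4 and S1pr5, the remaining receptors, were at 0 to 6.23 CPM in all compared classes.

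Of the 158 pathway gene-by-class pairs that passed the minimum, 5 were called in doxorubicin / control, 7 in doxorubicin+AMH / AMH, 7 in AMH / control and 14 in doxorubicin+AMH / doxorubicin, with 2, 2, 3 and 6 of them higher. Over all genes 2.55%, 3.55%, 5.69% and 7.14% of pairs were called, so nothing particular to the pathway is read from these counts. Calls in the same direction in both contrasts of a pair with no shared library came from 2 classes. In macrophage-like cells, where 11.2% and 11.6% of all genes were called in the doxorubicin contrasts without and with AMH, Plpp3 was lower with doxorubicin (-1.40 and -1.06; 38.8, 11.6, 17.0 and 40.8 CPM), with CPM ratios of 0.298 (0.123 to 0.628) and 0.416 (0.232 to 0.711). The macrophage-like class held only 184, 87, 92 and 181 cells. Sgms2, a sphingomyelin synthase, was higher with doxorubicin (1.79 and 0.85; 14.04, 60.7, 36.8 and 18.2 CPM). Plpp3 with doxorubicin and Sgms2 without it lay under the 20 CPM minimum. Each gene passed only through the libraries where it was high, so these calls depend on the values they compare. In theca-like cells Sgms1, another sphingomyelin synthase, was lower with AMH (-0.88 and -0.81; 354, 324, 182 and 191 CPM). So were Ugcg, glucosylceramide synthase (-0.78 and -0.78; 86.6, 81.1, 45.1 and 48.3 CPM), and Cers6 (-0.79 and -0.68; 441, 361, 223 and 253 CPM). Asah1 met the same condition in theca-like cells, in which 14.2% and 13.8% of all genes were called in these 2 contrasts in either direction. The theca-like class was made of different clusters in the AMH libraries, as given beside Asah1. The part of that change in the Sgms1, Ugcg and Cers6 values was not tested.

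The genes most like each member were sought over the 24 class-by-library sums among 9494 genes, by Pearson r of log2 CPM with 5 CPM added. The points share libraries and classes, so r is a description. S1pr1 was most like Prkch (0.994), Rapgef5 (0.988) and Pik3r6 (0.988). Sgpl1 was most like Ftl1 (0.983) and Sh3bp2 (0.982), and Asah1 like Prdx1 (0.971), Trim14 (0.964) and Il18 (0.959). S1pr2 was most like Adcy7 (0.966), Gas7 (0.938) and Rnase4 (0.931). Sgpp1 had the weakest likeness, with Fam53c (0.89), Cdk14 (0.884) and Cyp27a1 (0.867).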

How the data were processed

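The deposited data are counts: whole-number UMI counts per gene and cell, not normalized, from Cell Ranger (version 7.0.0, per the file headers). The submitters' processing notes list mm10, R 4.2.0 and Seurat 4.1.0 without a role. The kit was the 10x Chromium 3′ v3.1, per the labels' protocols. Annotation, intron counting and use of strand are not given in the sources used here. Gene positions come from GENCODE M21 on the same build.

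Deposited libraries held 7141 to 9478 cells and 138647495 to 178279122 UMIs. Cells below 1000 UMIs or above 20% mitochondrial UMIs were dropped, and Scrublet's highest scores were removed at 0.8% per 1000 deposited cells (677, 408, 489 and 719 cells; its own threshold marked 0 to 105). All libraries were clustered jointly (scanpy 1.11.5; 2000 variable genes without the genes described here, the pathway, tissue handling and mitochondrial genes; 30 components, 20 neighbours, Leiden resolution 1.0 with leidenalg 0.10.2). A cluster was named when at least 3 and 60% of a class's markers lay 1 log2 unit above the median cluster in at least 10% of its cells. It stayed unnamed when another class led its top 10 genes, when it was shallow (below 33.3% of the library median) without a marker there, or when 80% of its cells came from 1 library. These thresholds were set after seeing the data. UMIs were summed per class and library. Intervals are exact Poisson for levels, exact conditional Poisson for ratios and Clopper-Pearson for shares (scipy 1.17.1). Only the ratio intervals were tried on simulated data. Those counts were drawn as Poisson, so the trial cannot show how the intervals fare where UMIs gather in few cells.

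The members and lists were chosen with earlier results of these data known. All members are named. For differences between libraries, pathway genes are named when past 1.5-fold in the same direction in both contrasts of a pair. Such a pair shares no library, and at most 3 genes are named per class and pair. Other pathway genes are named where a class stood apart, and S1pr4 and S1pr5 as the remaining receptors. The 3 genes most like each member by r are named too. Some genes that met these rules are not reported here. Alternatives were the mitochondrial limit, minimum depth, doublets, cell weighting, scaling, CPM minimum, resolution, marker gating, pseudocount, fold and, for class order, each library left out. The limits on mitochondrial share and depth were changed within the existing clusters. Between groups no test was run, each being 1 library.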

Additional observations from a re-analysis of the deposited data

Results flagged for a closer look

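Sgpp1 pointed in opposite directions in 2 cell classes under the same contrast. For doxorubicin+AMH / doxorubicin its log2 ratio was 0.86 in blood endothelial-like cells (34 against 38 UMIs, 58 against 115 cells) and -0.70 in macrophage-like cells (29 against 33 UMIs, 92 against 87 cells). In the endothelial class the doxorubicin library was at 16.1 CPM, and the 20 CPM minimum was passed only through the libraries with AMH. The difference between the classes was not tested, since each group is 1 library.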

How the results depend on the processing

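Asah1, Sgpl1 and S1pr1 kept the same class apart under every alternative that touches class order, including each library left out in turn (count of genes 3 to 3). Of 968 log2 ratios under 11 alternatives, none of the called ones changed sign, 7 lost and 11 gained a call. Asah1 in theca-like cells ranged from -0.97 to -0.78 for AMH / control, lost only at 2-fold, and from -0.69 to -0.57 for doxorubicin+AMH / doxorubicin, lost at 2-fold and with cells gated on markers. Sgpp1 ranged from 0.26 to 1.33 in blood endothelial-like and -0.98 to -0.58 in macrophage-like cells, and both calls were lost with doublets kept and at 2-fold.

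In the order doxorubicin / control, doxorubicin+AMH / AMH, AMH / control and doxorubicin+AMH / doxorubicin, the calls of 0, 0, 1 and 3 became 2, 4, 3 and 5 with each cell weighted equally, 1, 1, 5 and 6 with no CPM minimum, 1, 1, 2 and 3 with marker gating, 1, 0, 1 and 1 with doublets kept and cells clustered again, and 0, 0, 0 and 0 at 2-fold. A pseudocount of 1 CPM gave 1 call in doxorubicin+AMH / AMH. The cause was not tested, except that dropping the minimum tests more pairs and a larger fold admits fewer. Keeping clusters mostly of 1 library, an alternative added after seeing the data, changed no count.

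No paired analysis was possible because each group is 1 library. Cell number limits the macrophage-like and blood endothelial-like values, with 58 to 184 cells per library.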
